A study of Mus musculus with 14 samples.

Results

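The 10 genes Ptpn6, Vav1, Coro1a, Lcp1, Laptm5, Cd53, Arhgdib, Was, Lyn and Cmtm7 encode signalling, cytoskeletal and membrane proteins shared by most blood cells, and their transcripts were followed from endothelium to blood cells in the mouse embryonic aorta. They were picked by name because of the values measured in these cells between haemogenic endothelial (HE) cells and cells undergoing the endothelial-to-haematopoietic transition (EHT). The HE to EHT step is therefore described without a test and supports nothing by itself. The 10 genes were all found among 19322 genes listed for E10 cells, 19424 for E11 cells and 19425 for whole clusters, of which 14285, 14682 and 13860 had any transcript.

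Single cells sorted from the aorta-gonad-mesonephros (AGM) region and the yolk sac (YS) were sequenced by CEL-Seq, which counts transcripts from their 3′ ends with molecular identifiers. The question was how transcripts change as endothelium gives rise to intra-aortic haematopoietic clusters (IAHCs). Cells came from E10 embryos of 28 to 32 somite pairs and from E11 embryos of more than 40. Non-HE, HE and EHT cells were sorted from pooled AGMs of ICR embryos that carried 1 Gfi1 tomato allele and 1 Gfi1b GFP allele. Non-HE cells were Cdh5+ Gfi1- Gfi1b- c-kit-, HE cells differed from them by being Gfi1+, and EHT cells by being Gfi1+ and c-kit+. IAHC cells, pre-HSCs and YS cells came from C57BL/6 wild-type embryos without reporter alleles. IAHC cells were c-kit+ CD31+, or in another E11 sample c-kit+. E11 pre-HSCs were c-kit+ Cdh5+ and were divided by CD45 into type I, which lack it, and type II, which have it. YS cells were c-kit+. Whole IAHCs (wIAHCs) were picked from slices of C57BL/6 wild-type embryos, and each library holds 1 cluster of many cells. Strain, reporter alleles and position before or after EHT changed together between EHT and IAHC cells, and these cannot be told apart.

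Each population at a stage was 1 sample of sorted cells, except that both types of pre-HSC were 1 sample divided by CD45. Single cells were therefore not treated as replicates and no test was run between populations. The E10 cells were 43 non-HE, 98 HE, 191 EHT, 73 IAHC and 141 YS cells. The E11 cells were 30 non-HE, 46 HE, 46 EHT, 62 type I and 55 type II pre-HSCs, 201 c-kit+ CD31+ and 89 c-kit+ IAHC cells and 46 YS cells. The deposited cells were all at 1 depth per stage, 3000 transcripts at E10 and 5000 at E11, so levels at both stages were compared only after E11 cells had been thinned to 3000. The E10 non-HE cells were labelled E10, although their columns carry names of early E11. Intervals are exact 95% intervals (Poisson for sums, Clopper-Pearson for shares) that cover counting error only. In sum, the sorts of HE and EHT cells matched their markers. The sum of 8 endothelial markers was 21.5 transcripts per cell in E10 HE cells and 5.88 in E10 EHT cells, and 41.8 and 13.6 at E11, while the sum of 7 haematopoietic markers was 1.78 and 6.31 at E10 and 1.83 and 8.96 at E11.

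Blood cells carry a set of signalling proteins that most other cells lack. Receptors at their surface start tyrosine kinase cascades that are passed on through exchange factors to small GTPases, and these remodel actin for migration, adhesion and uptake of particles. During EHT a flat endothelial cell rounds up, leaves the vessel wall and takes on this equipment, while its endothelial programme is lost.

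The promoters of the members with the largest gains at EHT, and every member window with an ETS-type or RUNX-type motif, are shown, since the genes were brought together by their joint gain. RefSeq (GRCm38.p6) gave promoter windows of 250 bases before to 50 bases after a start for 9 of the 10 genes, 13 windows in all, and none for Lyn. Motifs were searched on both strands and are in capitals. They were GAGGAAG or CTTCCTC, which resembles sites of ETS factors such as PU.1, TGTGGT or ACCACA, which resembles sites of RUNX factors, AGATAA or TTATCT, which resembles GATA sites, and TATAAA or TTTATA, as in TATA boxes. The first 2 sequences belong to the genes with the largest gains at EHT at E10 among those with a window (Ptpn6 and Coro1a) and hold none of these letters.
Ptpn6 promoter, chr6:124738660-124738959, minus strand: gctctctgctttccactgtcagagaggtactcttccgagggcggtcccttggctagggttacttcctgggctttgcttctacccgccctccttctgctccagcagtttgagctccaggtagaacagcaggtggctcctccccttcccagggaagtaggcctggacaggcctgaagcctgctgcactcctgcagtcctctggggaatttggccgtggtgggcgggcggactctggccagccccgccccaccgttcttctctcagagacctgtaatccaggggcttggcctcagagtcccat
Coro1a promoter, 1 of 2 windows, chr7:126704767-126705066, minus strand: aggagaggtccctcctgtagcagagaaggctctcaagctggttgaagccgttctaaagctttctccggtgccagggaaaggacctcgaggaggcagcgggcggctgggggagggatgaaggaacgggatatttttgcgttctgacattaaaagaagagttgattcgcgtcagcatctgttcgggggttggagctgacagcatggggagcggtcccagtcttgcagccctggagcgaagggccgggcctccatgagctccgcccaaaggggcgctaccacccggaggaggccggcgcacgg
Vav1 promoter, chr17:57278850-57279149, plus strand: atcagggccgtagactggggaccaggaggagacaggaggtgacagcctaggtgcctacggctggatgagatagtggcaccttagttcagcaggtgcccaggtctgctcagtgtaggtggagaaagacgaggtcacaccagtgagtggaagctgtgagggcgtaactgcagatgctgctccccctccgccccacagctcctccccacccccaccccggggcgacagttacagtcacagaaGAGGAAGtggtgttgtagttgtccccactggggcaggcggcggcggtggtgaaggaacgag
Laptm5 promoter, chr4:130913066-130913365, plus strand: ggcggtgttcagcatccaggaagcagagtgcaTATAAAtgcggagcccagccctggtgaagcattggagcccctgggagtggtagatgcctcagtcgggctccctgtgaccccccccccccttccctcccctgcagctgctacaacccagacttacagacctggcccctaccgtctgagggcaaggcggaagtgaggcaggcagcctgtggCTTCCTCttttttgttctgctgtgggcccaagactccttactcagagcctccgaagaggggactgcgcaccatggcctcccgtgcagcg
Was promoter, chrX:8090442-8090741, minus strand: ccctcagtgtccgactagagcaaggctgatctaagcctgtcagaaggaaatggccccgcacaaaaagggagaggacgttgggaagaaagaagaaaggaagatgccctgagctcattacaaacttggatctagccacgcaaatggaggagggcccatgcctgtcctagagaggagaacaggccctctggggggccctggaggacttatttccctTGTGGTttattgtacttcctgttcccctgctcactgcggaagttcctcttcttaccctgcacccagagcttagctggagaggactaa
Cd53 promoter, chr3:106790100-106790399, minus strand: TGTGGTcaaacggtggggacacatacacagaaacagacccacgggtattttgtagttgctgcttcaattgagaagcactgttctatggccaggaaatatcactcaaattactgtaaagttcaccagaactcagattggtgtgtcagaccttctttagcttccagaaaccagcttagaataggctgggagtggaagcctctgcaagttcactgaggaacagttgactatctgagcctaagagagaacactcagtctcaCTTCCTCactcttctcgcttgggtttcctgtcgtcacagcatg
Arhgdib promoter, 1 of 3 windows, chr6:136939478-136939777, minus strand: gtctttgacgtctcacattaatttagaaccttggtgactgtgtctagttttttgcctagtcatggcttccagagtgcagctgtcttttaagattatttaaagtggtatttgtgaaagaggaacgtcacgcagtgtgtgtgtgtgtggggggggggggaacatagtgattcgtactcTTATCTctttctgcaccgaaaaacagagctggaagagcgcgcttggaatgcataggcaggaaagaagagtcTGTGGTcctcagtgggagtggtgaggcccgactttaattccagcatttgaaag

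Counted from the start site to the first base of the motif, the ETS-type letters stood at -11 in Vav1, at -39 in Laptm5 and at 7 in Cd53. The RUNX-type letters stood at -37 in Was, at -250 in Cd53 and at -3 in Arhgdib, which also held the GATA-type letters at -74. In all, GAGGAAG was found in 3 of 13 member windows (Vav1, Laptm5 and Cd53), or 23.1%, and in 13.6% of 32851 windows of all genes. TGTGGT was found in 3 of 13 (Was, Cd53 and a window of Arhgdib), against 16.8% of all windows. AGATAA was found in 1 (Arhgdib), against 11.2%, and TATAAA in 2 (Laptm5 and a second Arhgdib window), against 13.6%. The median GC content was 61% in the member windows and 52.7% in all windows. No share was tested, a match of letters is not a bound site, and no letters searched were common to all member windows.

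The genes lie on 8 chromosomes, and only Ptpn6 with Arhgdib (chromosome 6) and Laptm5 with Lyn (chromosome 4) share one. Gene spans in GENCODE vM21 (GRCm38) ran from 8.02 kb for Coro1a (chr7:126699773-126707787) to 135 kb for Lyn (chr4:3678115-3813122). No member overlapped another gene on its own strand. Genes on the opposite strand overlapped 7 members, among them Bola2 at Coro1a, Pde6h at Arhgdib and 4 genes at Lyn. Whether the counting used strand is not given in the sources used here, so reads of such partners cannot be told apart.

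Summed over the 10 genes, transcripts were more abundant in each successive population at E10 up to the IAHC. Non-HE cells held 1.07 member transcripts per cell (95% interval 0.783 to 1.43), HE cells 2.22 (1.94 to 2.54) and EHT cells 4.91 (4.6 to 5.24). IAHC cells held 9.36 (8.67 to 10.1) and YS cells 8.96 (8.47 to 9.47). The intervals of the first 4 populations did not overlap, and those of IAHC and YS cells did. As a share of all transcripts the members made up 0.0357% in non-HE, 0.0741% in HE, 0.164% in EHT, 0.312% in IAHC and 0.299% in YS cells.

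At E11 the sum was alike in both endothelial populations and higher from EHT on. Non-HE cells held 1.9 and HE cells 1.89 (1.51 to 2.33) transcripts per cell, and EHT cells held 6 (5.31 to 6.75). Type I pre-HSCs held 9.5 (8.75 to 10.3), type II pre-HSCs 13.5 (12.6 to 14.5) and YS cells 14 (13 to 15.2). IAHC cells lay between the types of pre-HSC, with 12.7 (12.2 to 13.2) in c-kit+ CD31+ cells and 11.1 (10.4 to 11.8) in c-kit+ cells. Neighbours in this order whose intervals overlapped were non-HE and HE cells, c-kit+ CD31+ IAHC cells and type II pre-HSCs, and type II pre-HSCs and YS cells.

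**Figure D1:**
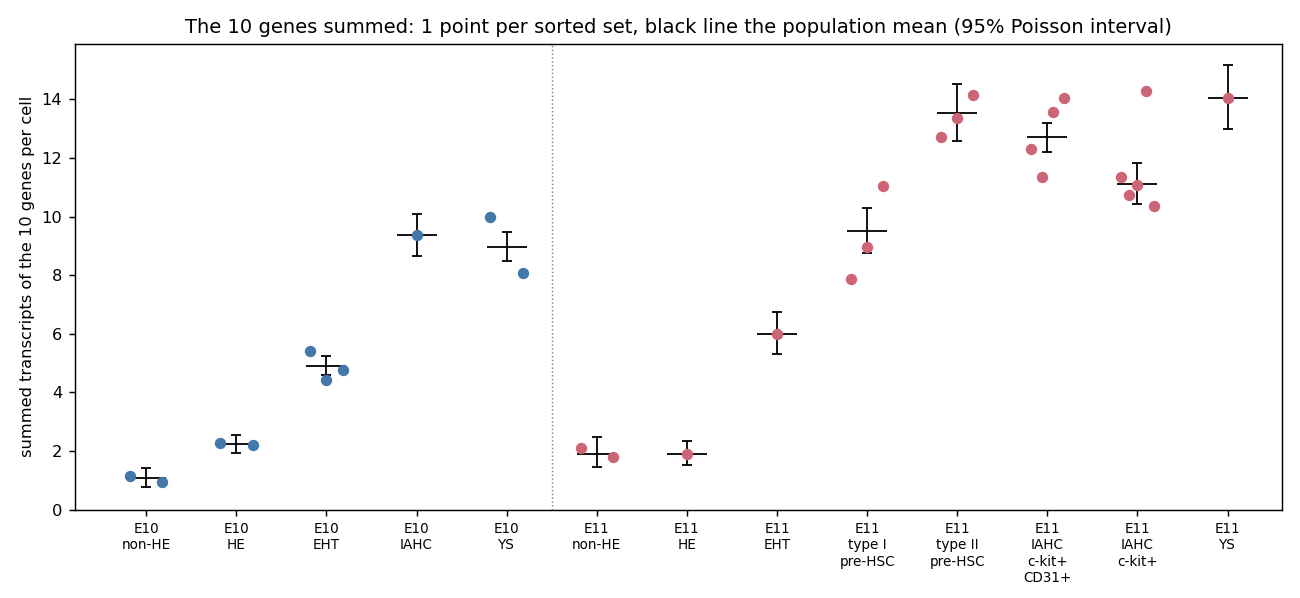
Summed transcripts of the 10 genes per cell (vertical axis) in each sorted population (horizontal axis), with 1 point for each sorted set of cells and a black line with its 95% Poisson interval for the population. At E10 the 3 EHT sets sit between 4.42 and 5.42, above both HE sets at 2.2 and 2.27, and at E11 the type II pre-HSC sets sit above the type I sets.

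The sorted sets within a population, which are the groups of columns that share a name, showed how far the sum varied within 1 label. The 3 E10 EHT sets held 4.42 and 4.76 (named late E10) and 5.42 (named E10.5) transcripts per cell. The 2 HE sets, both named E10.5, held 2.2 and 2.27. The E11 non-HE sets were named late E11 and E11.5. Where the names differ in stage, set and stage cannot be told apart. The E11 HE, EHT and YS cells and the E10 IAHC cells were 1 set each, so that for those populations set and population cannot be told apart. The 3 type I pre-HSC sets held 7.88, 8.97 and 11.1 and the 3 type II sets 12.7, 13.4 and 14.2 (8 to 34 cells a set), without overlap. Sets of the types carry matching numbers in the column names, and type II was higher in each of the 3 like-numbered pairs, at 12.7 against 7.88, 13.4 against 8.97 and 14.2 against 11.1. The c-kit+ IAHC sets spanned 10.3 to 14.3, the highest being a set of 7 cells, and overlapped the c-kit+ CD31+ sets at 11.4 to 14.

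Among signalling enzymes, Ptpn6 had the steepest gain at EHT at E10. It encodes SHP-1, a tyrosine phosphatase that dampens signals from haematopoietic receptors. Its 98 HE cells held 4 transcripts and its 191 EHT cells 141, or 0.0408 against 0.738 per cell. The 4 were all in 1 of the 2 HE sets, and with that set alone the log2 fold was 3.49 in place of 4.2. It was seen in 4.08% of HE cells (1.1% to 10.1%) and in 50.3% of EHT cells (43 to 57.6%). No non-HE cell at E10 had a Ptpn6 transcript, and a count of 0 in 43 cells leaves room for up to 6.98% of cells with a detected transcript at this depth (8.22% by the exact interval). IAHC cells (0.849 per cell) were close to EHT cells (fold 1.2, 0.839 to 1.56), and YS cells were lower than IAHC cells (0.482, fold 0.568, 0.397 to 0.814). At E11 the levels were 0.0667 in non-HE, 0.087 in HE, 0.587 in EHT, 1.02 in type I, 1.09 in type II and 0.783 in YS cells. Type I pre-HSCs were higher than EHT cells at E11 (fold 1.73, 1.09 to 2.83).

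Lyn encodes a Src-family kinase that acts below antigen, cytokine and integrin receptors, and it did not follow this pattern. It was already seen in 18.6% of E10 non-HE cells and 20.4% of HE cells, and its level ran from 0.186 to 0.288 per cell over the 5 E10 populations. From HE to EHT its fold was 1.2 (0.727 to 2.06) at E10 and 0.5 (0.0809 to 2.34) at E11. It was higher in type I pre-HSCs than in E11 EHT cells, 21 transcripts in 62 cells against 3 in 46 (fold 5.19, 1.55 to 27.2).

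Vav1 encodes the haematopoietic exchange factor for small GTPases, and at E10 its level was higher from EHT to IAHC cells, while HE and EHT cells were not distinguishable. The E10 non-HE, HE and EHT cells held 1, 2 and 8 Vav1 transcripts in all, or 0.0233, 0.0204 and 0.0419 per cell. IAHC cells held 16 in 73 cells (0.219 per cell, fold over EHT 5.23, 2.11 to 14.1) and YS cells 0.333 per cell. At E11 it was listed at 0 in non-HE cells and ran at 0.0217 in HE, 0.109 in EHT, 0.258 in type I and 0.491 in type II cells. Its HE to EHT fold of 5 at E11 had an interval of 0.559 to 236, since 1 and 5 transcripts stood behind it, and its fold from EHT to type I cells was 2.37 (0.831 to 8.29).

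Arhgdib encodes a GDP-dissociation inhibitor of blood cells, which holds small GTPases inactive in the cytosol, and it was 1 of 3 members, with Coro1a and Lcp1, that were higher in HE than in non-HE cells at E10. Non-HE cells held 1 transcript in 43 cells, HE cells 31 in 98 (0.316 per cell, fold 13.6, 2.27 to 554). EHT cells held 0.785 (fold 2.48 over HE, 1.68 to 3.78), IAHC cells 1.77 and YS cells 1.88. At E11 non-HE cells already held 0.333 and HE cells 0.457 per cell, with a fold of 1.4 (0.617 to 3.26). E11 EHT cells held 0.739, type I cells 1.34, type II cells 2.04 and YS cells 3.24, the last in 97.8% of cells.

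Of the actin regulators, Coro1a, which encodes coronin-1A and binds filamentous actin in leukocytes, was higher at each step up to IAHC cells at E10 and at each step from HE cells to type II pre-HSCs at E11. From non-HE to HE cells at E11 it had 2 and 5 transcripts (fold 1.63, 0.267 to 17.1). Its E10 levels were 0 in non-HE, 0.143 in HE, 1.0 in EHT, 2.48 in IAHC and 1.71 in YS cells. It was seen in 10.2% of HE cells (5 to 18%), 58.1% of EHT cells (50.8 to 65.2%) and 84.9% of IAHC cells (74.6 to 92.2%). The HE to EHT fold was 7.07 (4.11 to 13.2) at E10, from 14 to 193 transcripts, and 10.4 (4.2 to 33.4) at E11, from 5 to 52. Its level was 0.0811 in one E10 HE set and 0.18 in the other, so the E10 log2 fold was 3.64 or 2.49 by the HE set used. E11 levels then were 2.63 in type I, 3.96 in type II and 3.98 in YS cells, with 94.5% of type II cells positive. Coro1a and Arhgdib were the members with a counting interval above 1 at each of the E10 steps non-HE to HE, HE to EHT and EHT to IAHC.

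Lcp1 encodes L-plastin, which bundles actin in leukocytes, and its course differed between the stages. At E10 it held 0.256 per cell in non-HE, 0.551 in HE and 0.482 in EHT cells, so its HE to EHT fold was 0.874 (0.618 to 1.25). The direction turned with the set, at -0.70 and 0.23 on the log2 scale with each HE set alone and at -0.88 to 0.38 with each EHT set alone. At E11 it held 0.367 in non-HE, 0.0652 in HE and 0.826 in EHT cells, a fold of 12.7 (4.02 to 64.1) from HE to EHT. The low E11 HE level rested on 3 transcripts in 46 cells of 1 set, and at 3000 transcripts per cell it was 0.0789 times the E10 HE level (0.00932 to 0.299). Type II pre-HSCs were highest at E11, at 1.56 per cell, against 0.839 in type I (fold 1.86, 1.3 to 2.7).

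Was encodes the Wiskott-Aldrich syndrome protein, which starts actin branching below Cdc42. Its E10 levels were 0.0465, 0.133, 0.267, 0.315 and 0.383 per cell from non-HE to YS cells, and the HE to EHT fold was 2.0 (1.08 to 4.03). That fold moved with the HE set, which held 0.0541 or 0.18 per cell, to 2.30 or 0.57 on the log2 scale. At E11 it was listed at 0 in 30 non-HE cells and held 2 transcripts in HE and 9 in EHT cells (fold 4.5, 0.931 to 42.8). Type II pre-HSCs held 0.436, the highest of the E11 populations.

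Among the membrane proteins, Laptm5, a lysosomal protein that limits surface receptors of lymphocytes and macrophages, was present before EHT. It was seen in 34.9% of E10 non-HE cells (21 to 50.9%), 48% of HE cells and 64.9% of EHT cells, and in 33.3%, 45.7% and 89.1% at E11. Its levels were 0.419, 0.704, 1.03, 1.88 and 1.88 from non-HE to YS cells at E10. The HE to EHT fold was 1.46 (1.11 to 1.96) at E10 and 1.98 (1.33 to 2.97) at E11. Type I and type II pre-HSCs held 2.56 and 2.62 (fold 1.02, 0.809 to 1.3), and YS cells at E11 were lower, at 1.89.

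Cd53, a tetraspanin of leukocytes, stayed rare. It was seen in 0 of 43 E10 non-HE cells and in 3.06%, 5.76%, 4.11% and 9.22% of HE, EHT, IAHC and YS cells. At E11 it was listed at 0 in non-HE and HE cells, in 9 of 46 EHT cells (19 transcripts), and in 1 of 62 type I and 3 of 55 type II cells. Against a floor of 3 transcripts over the HE cells, E11 EHT cells were at least 6.33-fold higher, where the exact interval begins at 4.67-fold, and type I pre-HSCs had 0.039 times the EHT level (0.00094 to 0.246). Of the 19 transcripts in EHT cells, 8 and 1 were in 2 cells that also held macrophage markers.

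Cmtm7, a transmembrane protein of the chemokine-like factor family that takes part in B-cell receptor signalling, was higher at EHT and again at both later steps at E10, and at E11 in type II pre-HSCs and YS cells. Its E10 levels were 0.116 in non-HE, 0.0408 in HE, 0.215 in EHT, 0.63 in IAHC and 1.1 in YS cells. The HE to EHT fold was 5.26 (1.9 to 20.2), from 4 to 41 transcripts, the 4 all in 1 of the 2 HE sets, and the EHT to IAHC fold was 2.9 (1.88 to 4.59). The non-HE cells at 5 transcripts in 43 cells were not distinguishable from HE cells (fold 0.351, 0.0697 to 1.63). At E11 it stood at 0.333 in non-HE, 0.109 in HE, 0.217 in EHT and 0.274 in type I cells. From HE to EHT at E11, with 5 and 10 transcripts, its interval spanned no change. Type II cells held 0.891 (fold over type I 3.25, 1.84 to 6.02). Cmtm7 was seen in 19% of type I, 56.4% of type II and 69.6% of YS cells.

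**Figure D2:**
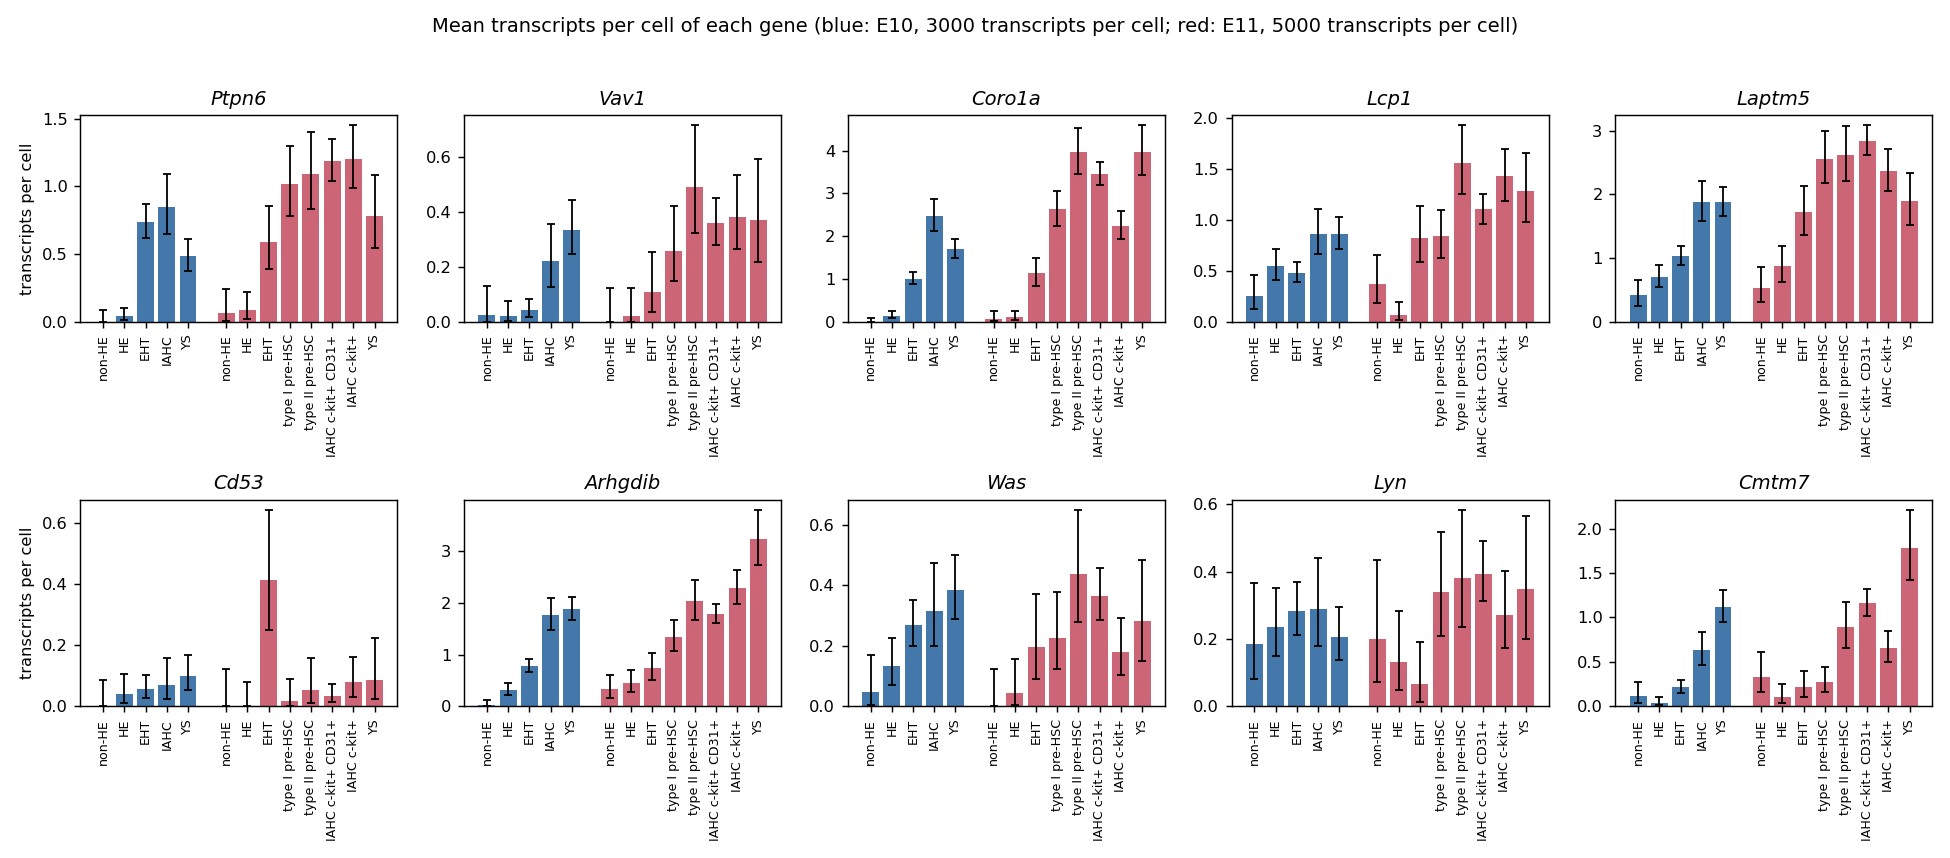
Mean transcripts per cell (vertical axes, bars with 95% Poisson intervals) of each gene in the sorted populations, in blue for E10 at 3000 and in red for E11 at 5000 transcripts per cell. Ptpn6, Coro1a and Cmtm7 step up at EHT at E10 (0.738, 1.0 and 0.215 per cell), Vav1 is higher in IAHC than in EHT cells, and Lyn stays between 0.186 and 0.288 at E10.

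The step that chose the genes can be set against all genes by a fixed fold. With 0.1 added per cell and genes of at least 0.1 transcripts per cell on average, 4 of 8 members measured (Arhgdib, Cmtm7, Coro1a and Ptpn6) were at least 2-fold higher in EHT than in HE cells at E10, where 2.44% of all genes were. At E11 these were 5 of 8 (Cd53, Coro1a, Lcp1, Ptpn6 and Was), where 5.68% of all genes were. Vav1 and Cd53 at E10, and Vav1 and Lyn at E11, were below the minimum. Nothing is read from these counts, because the rule used this step. By counting intervals, 6 members were higher and none lower at E10, and 5 higher and none lower at E11, with Ptpn6, Coro1a and Laptm5 higher at both. Of all genes with a transcript, 8.35% and 6.1% had counting intervals above 1 at these steps. The summed fold was 2.21 (1.9 to 2.57) at E10 and 3.17 (2.48 to 4.08) at E11.

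Before EHT, the endothelial populations differed in the summed genes at E10 (HE over non-HE, fold 2.08, 1.51 to 2.92) and were not distinguishable at E11 (fold 0.995, 0.705 to 1.4). By column name the E10 non-HE cells are early E11 and the HE cells E10.5. Population and named stage therefore cannot be told apart at this E10 step. From non-HE to HE cells at E10, 1 of 4 members measured was at least 2-fold higher (Arhgdib), against 2.6% of all genes, and 3 of 10 had counting intervals above 1 (Arhgdib, Coro1a and Lcp1), against 3.73% of all genes. Arhgdib passed the minimum level through HE cells alone. With 0.5 added per cell in place of 0.1, 0 members were at least 2-fold higher at this step, against 0.0845% of all genes. At E11 none of 5 was higher, against 5.58% of all genes, and Cmtm7 and Lcp1 were at least 2-fold lower, where 4.32% of all genes were. Lcp1 passed the minimum level through non-HE cells alone. Haematopoietic markers other than the members held 0.186 transcripts per cell in non-HE and 1.78 in HE cells at E10, and 0.133 and 1.83 at E11. These markers include Gfi1, by which HE cells were sorted from non-HE cells, so their sum is not independent of the sort. Erythroid markers held 0.0698 and 0.776 at E10 and 0.167 and 0.761 at E11, and their part in the result was not tested.

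After EHT some members were higher again. From EHT to IAHC cells at E10, 4 of 9 members measured (Arhgdib, Cmtm7, Coro1a and Vav1) were at least 2-fold higher, against 1.66% of all genes, and 6 of 10 had intervals above 1 (Vav1, Coro1a, Lcp1, Laptm5, Arhgdib and Cmtm7), against 7.29%. Vav1 passed the minimum level through IAHC cells alone, so that its count among the 4 is no support. With 0.5 added per cell in place of 0.1, 0 members were at least 2-fold higher, against 0.192% of all genes. The summed fold was 1.9 (1.72 to 2.1). From EHT cells to type I pre-HSCs at E11, 2 of 10 (Coro1a and Lyn) were at least 2-fold higher, against 3.1% of all genes, and Cd53 was lower, as were 8.26% of all genes. Lyn and Cd53 each passed the minimum level through their higher population alone, and with 0.5 added 0 members were higher, against 0.283%. That summed fold was 1.58 (1.4 to 1.83). Both steps also cross from ICR reporter embryos to C57BL/6 wild-type embryos. Summed erythroid markers moved over them as well, from 0.0628 to 1.5 transcripts per cell at E10 and from 0.174 to 3.52 at E11. Endothelial markers went from 5.88 to 3.74 at E10 and from 13.6 to 7.94 at E11. Macrophage markers went from 0.393 to 0.521 at E10 and from 5.59 to 0.694 at E11. The part of these markers in the result was not tested.

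Between the types of pre-HSC, which came from the same strain and sort and differ by CD45, 1 of 9 members (Cmtm7) was at least 2-fold higher in type II, against 1.18% of all genes. This call rested on 1 type I set of 34 cells, without which the Cmtm7 fold was 1.78 (log2 0.83, -0.05 to 1.81) and 0 members were called, and it was also lost with 0.5 added. Coro1a (fold 1.51), Lcp1 (1.86), Arhgdib (1.5) and Cmtm7 (3.25) had intervals above 1, as had 2.41% of all genes, and Ptpn6 and Laptm5 had folds of 1.07 and 1.02. Without the type I set of 34 cells the interval of Arhgdib spanned no change (log2 0.51, -0.02 to 1.07). The summed fold was 1.4 (1.28 to 1.59). Ptprc, which encodes CD45 itself, held 0.113 and 0.309 transcripts per cell. The endothelial markers were lower in type II, at 4.04 per cell against 7.94 in type I, and the part of this in the result was not tested.

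Against YS cells, 0 of 9 members were at least 2-fold higher in YS than in IAHC cells at E10, against 2.76% of all genes, and 0 of 9 higher in YS than in type II cells at E11, against 2.59%. By counting intervals Cmtm7 was higher in YS cells at both stages (fold 1.78 at E10 and 2 at E11), and Arhgdib at E11 (fold 1.59, 1.2 to 2.05). Ptpn6 and Coro1a were lower in YS than in IAHC cells at E10, and Laptm5 was lower in YS than in type II cells at E11 (fold 0.722). Of all genes, 6.45% were higher and 9.09% lower in YS cells by this rule at E10, and 4.57% and 5.26% at E11. Summed endothelial markers were lower in YS cells, from 3.74 to 0.213 per cell at E10 and from 4.04 to 0.761 at E11. Erythroid markers went from 1.5 to 2.17 and from 2.42 to 5.46, and the part of both in the result was not tested. Within E11 IAHC cells, the c-kit+ sample was lower than the c-kit+ CD31+ sample in Coro1a, Laptm5, Was and Cmtm7 and higher in Lcp1 and Arhgdib, where 6.2% of all genes were lower and 4.97% higher. Endothelial markers went from 7.09 per cell in c-kit+ CD31+ to 4.34 in c-kit+ cells. Erythroid markers went from 0.249 to 0.685 and mesenchymal markers from 0.582 to 1.04, and the part of these in the result was not tested. Of the c-kit+ sample, 47 of 89 cells passed the study's rule for IAHC cells as rebuilt here, with 11 genes taken as its non-IAHC genes. These cells held 11.9 member transcripts per cell.

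Compared at 3000 transcripts per cell, EHT cells held fewer member transcripts at E11 than at E10, 3.52 against 4.91 per cell (fold 0.717, 0.603 to 0.848). Ptpn6, Arhgdib, Was, Lyn and Cmtm7 were lower at E11 and Cd53 was higher, as were 7.4% and 3.31% of all genes. Of the E11 Cd53 transcripts at the deposited depth, 9 of 19 were in 2 cells with macrophage markers, whose sum was 5.59 per cell in E11 and 0.393 in E10 EHT cells. HE cells were lower in sum (fold 0.567), with Lcp1 alone lower by its counting interval (6.6% of all genes), and c-kit+ CD31+ IAHC cells were lower (fold 0.813), with Coro1a and Arhgdib lower by their counting intervals (10.3% of all genes). In sum, YS cells (fold 0.932, 0.829 to 1.05) and non-HE cells (fold 1.03, 0.637 to 1.64) were not distinguishable between stages at this depth, but single members were. In YS cells Coro1a was higher at E11 (fold 1.4, 1.13 to 1.79), and Laptm5 (0.578, 0.419 to 0.785) and Was (0.227, 0.0597 to 0.616) were lower, as were 2.76% and 8.95% of all genes. In non-HE cells Arhgdib was higher at E11 (fold 8.6, 1.04 to 396), as were 1.6% of all genes. The E10 non-HE columns carry names of early E11. Each of these comparisons set 1 sample against 1 sample.

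Cells from EHT on held transcripts of more of the 10 genes, a number that also grows with their summed level. The median cell had transcripts of 1 of the 10 genes in non-HE and HE cells at both stages, 3 in E10 EHT cells and 5 in E10 IAHC and YS cells. At the deposited E11 depth of 5000 it was 4 in EHT cells and 5 or 6 in later populations. Thinned to 3000 transcripts, it was 2 in E11 EHT cells, 3 in type I pre-HSCs, 4 in both IAHC samples and 5 in type II pre-HSCs and YS cells. Cells with 5 or more of the genes were 0% of non-HE, 3.06% of HE, 30.4% of EHT (23.9 to 37.4%), 53.4% of IAHC and 57.4% of YS cells at E10. At E11 they were 0% of HE, 28.3% of EHT, 53.2% of type I, 78.2% of type II and 76.1% of YS cells. After thinning to 3000 transcripts these E11 shares were 0%, 13%, 24.2%, 50.9% and 56.5%, in the same order. No cell had all 10, and the highest number was 9, in YS cells at E10 and in IAHC cells at E11.

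**Figure D3:**
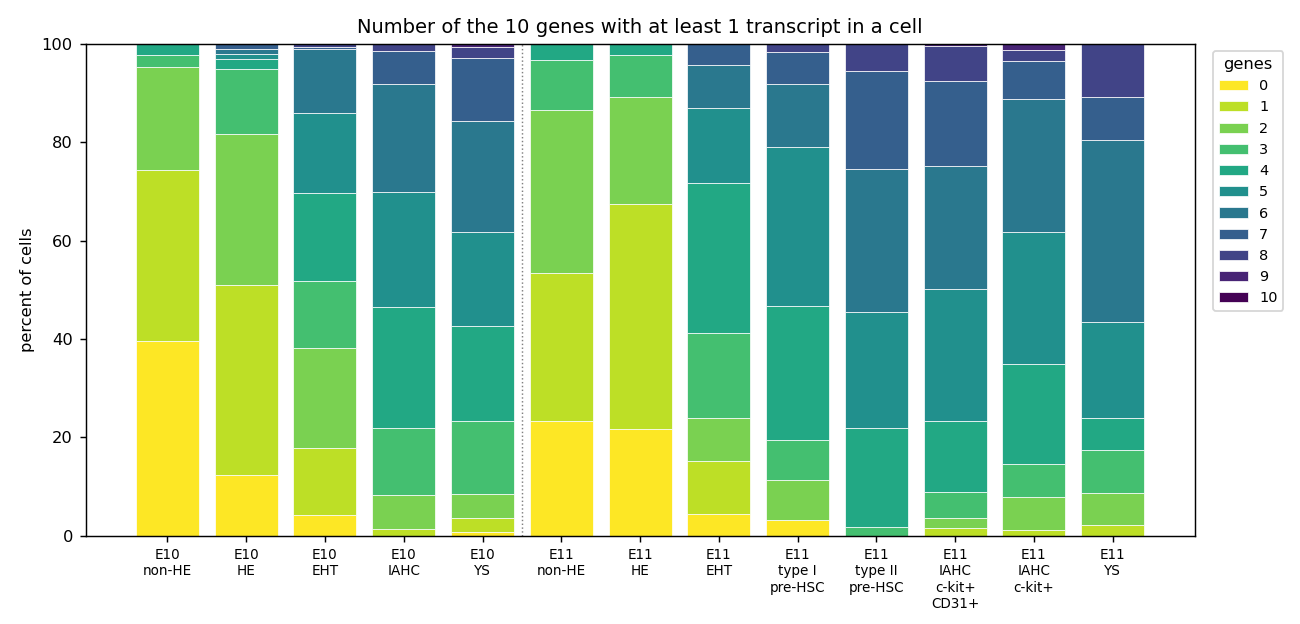
Percent of cells (vertical axis) in each population by how many of the 10 genes had at least 1 transcript (colour), at the deposited depths. EHT cells are spread from 0 to 8 genes at E10, between HE cells with a median of 1 and IAHC cells with a median of 5.

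Within EHT cells, those with more member transcripts held fewer endothelial transcripts. Spearman's rank correlation between the summed members and the summed endothelial markers was -0.45 over 191 E10 EHT cells and -0.62 over 46 E11 EHT cells. With haematopoietic markers the correlation was 0.21 and 0.35, and it was 0.08 in type I, 0.36 in type II and 0.19 in c-kit+ CD31+ IAHC cells. In later populations the relation with endothelial markers was weaker, at -0.20 in 62 type I, 0.12 in 55 type II and -0.14 in 201 c-kit+ CD31+ IAHC cells. These are descriptions over cells of 1 sample each, whose depths were equalised and whose counts are sparse.

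A few cells carried macrophage markers, and these touched some members. Cells with transcripts of at least 4 of 7 markers (Csf1r, Fcgr3, Ctss, Lgals3, Lyz2, C1qb and Cd68) were 1 of 98 E10 HE cells and 2 of 46 E11 EHT cells, and none elsewhere. In the 2 EHT cells, Ctss had 42 and 30 transcripts and Lgals3 48 and 26, while C1qb was at 0 in both. The summed markers stood at 5.59 per cell in E11 EHT cells and at 0 to 0.731 in the other populations. Those 2 cells held 30 of the 276 member transcripts of E11 EHT cells, among them 10 of Laptm5, 9 of Cd53 and 5 of Lcp1. Without them and the HE cell, the HE to EHT fold of the sum was 2.96 at E11 and 2.3 at E10. Lcp1 was then 12-fold (3.61 to 58.6), Laptm5 1.8-fold (1.2 to 2.73), and Cd53 at least 3.48-fold higher at E11 against the same floor, with an exact interval from 2.34-fold. The other 44 EHT cells still held macrophage markers, among them C1qb. These folds are therefore not free of such transcripts, and their part was not tested.

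Related genes used outside blood were looked at over the same populations. Of 22 counterparts, such as family members used by other cells, 18 were measured from HE to EHT at each stage. None was at least 2-fold higher at either stage, none was lower at E10, and 1 was lower at E11 (Pls3), where 4.85% and 7.72% of all genes were lower and 2.44% and 5.68% higher. Nothing is read from these counts, since the step is the one that chose the members. Laptm4a, a lysosomal relative of Laptm5, ran at 2.44, 1.79, 1.05, 0.795 and 0.333 transcripts per cell from non-HE to YS cells at E10, in the order opposite to Laptm5. From HE to EHT its fold was 0.586 (0.476 to 0.722) at E10 and 0.68 (0.512 to 0.899) at E11. Pls3, the T-plastin relative of Lcp1, was 0.674 in non-HE, 0.153 in HE, 0.0785 in EHT and 0.0548 in IAHC cells and listed at 0 in YS cells at E10. At E11 it was 21 transcripts in HE and 4 in EHT cells (fold 0.19, 0.0475 to 0.565).

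Of other relatives, Cd81 was lower in EHT than in HE cells at both stages and Src at E10. Coro1b, a coronin of many tissues, ran from 0.465 to 0.753 per cell over the E10 populations, while Coro1a ran from 0 to 2.48. Arhgdia, the widely used relative of Arhgdib, was 1.3 in HE and 1.25 in EHT cells at E10. Cd81, a widely used tetraspanin, had HE to EHT folds of 0.703 (0.583 to 0.849) and 0.554 (0.409 to 0.744) at E10 and E11. Src, the founding member of the kinase family of Lyn, had folds of 0.474 (0.26 to 0.858) and 0.412 (0.144 to 1.04). Vav2 was listed at 0 in all 1121 cells, where a count of 0 leaves room for up to 0.268% of cells with a detected transcript. Such a limit says nothing of cells whose transcripts were not captured.

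**Figure D4:**
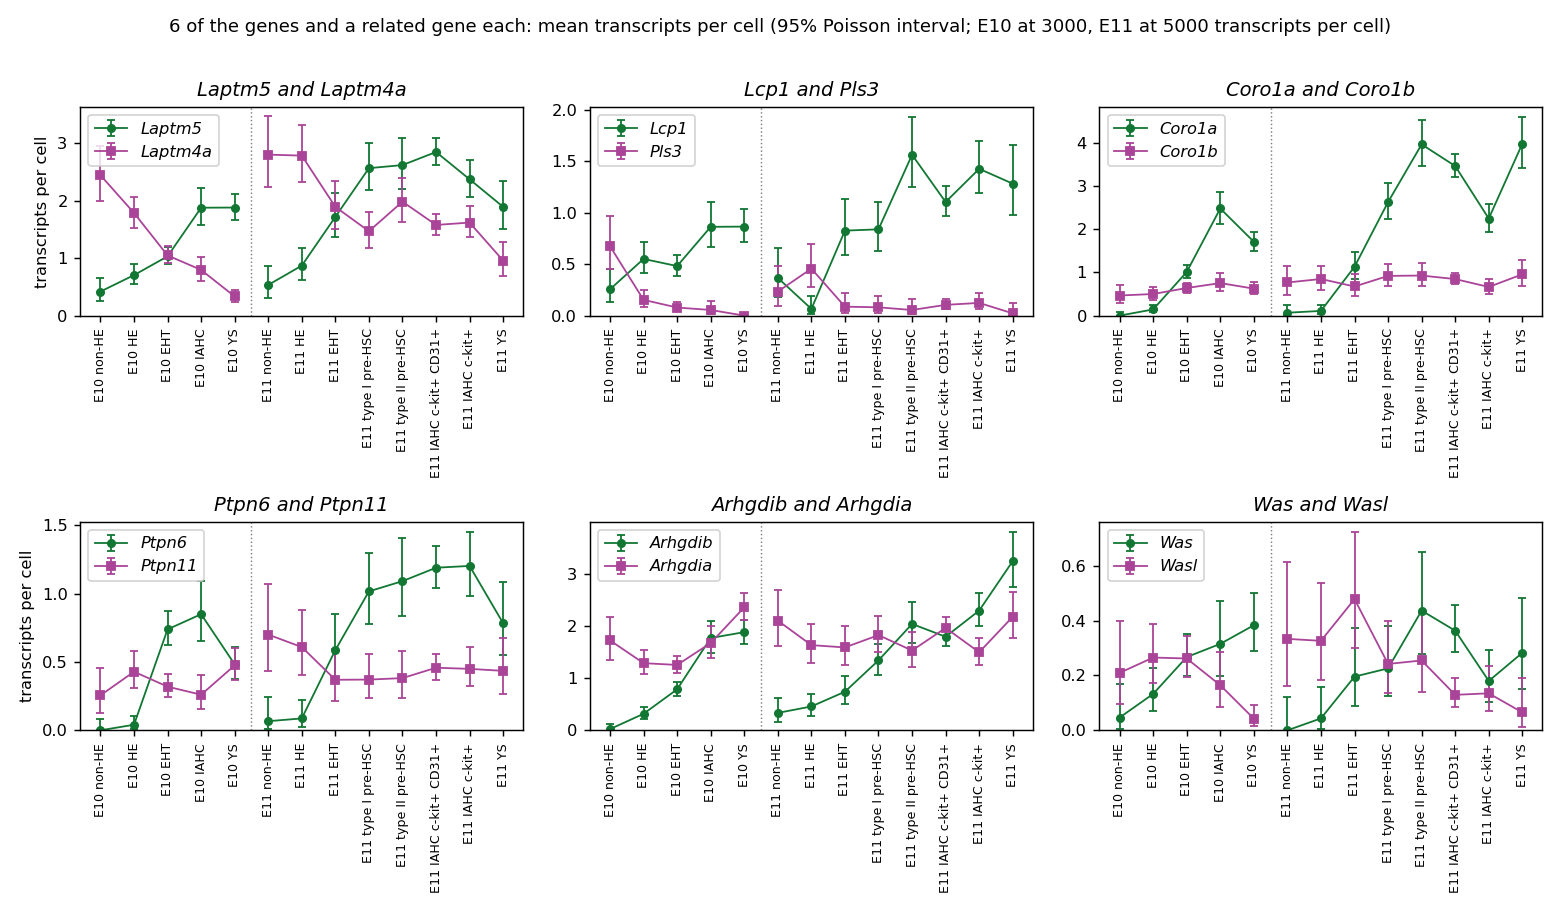
Mean transcripts per cell (vertical axes, 95% Poisson intervals) of 6 of the genes (green circles) and a related gene each (purple squares) by population. Lines join populations of a stage for the eye only. Laptm5 and Laptm4a cross at EHT at E10, with 1.03 and 1.05 transcripts per cell, whereas Coro1b stays between 0.465 and 0.753 while Coro1a goes from 0 to 2.48.

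Further signalling genes of blood cells, from a list of 38, were seen beside the members. From HE to EHT, 14 of the 38 were measured at E10 and 7 of these were at least 2-fold higher (Cyth4, Dock2, Dok2, Gmfg, Rac2, Spn and Syk), where 2.44% of all genes were. At E11 it was 13 of 20, where 5.68% of all genes were, and none was lower at either stage. This list too was drawn up with earlier results of these cells known, so its counts are a description. Rac2, the GTPase that Vav1 activates in blood cells, went from 4 to 61 transcripts at E10 (fold 7.82, 2.9 to 29.6) and from 0 to 22 at E11, at least 7.33-fold higher against the floor of 3 transcripts (exact interval from 5.48-fold). Spn, which encodes CD43, had folds of 7.7 (2.47 to 38.7) and 7.4 (2.9 to 24.1). Dok2, an adaptor that dampens receptor signals, had 7.11 (3.32 to 18.2) at E10 and 1.73 (0.781 to 4.02) at E11. Tyrobp, Fcer1g, Itgb2 and Dock8 were at least 2-fold higher at E11 and at least 2-fold lower again in type I pre-HSCs. The 2 cells with macrophage markers held 12 of 20 Tyrobp, 22 of 22 Fcer1g, 14 of 19 Itgb2 and 4 of 9 Dock8 transcripts of E11 EHT cells.

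Over the 13 populations, the genes outside the list whose levels went most like the summed members were Gpx1, Dctpp1, Nup210, Dnmt3b and Nop16. Likeness was Pearson's r of log2 levels, with E11 cells thinned to 3000, over the 2396 genes that reached 0.5 transcripts per cell in any of the populations. It was 0.989 for Gpx1 and 0.972 to 0.982 for the other 4. Gpx1, a glutathione peroxidase, ran from 1.13 to 9.68 transcripts per cell and was highest in E10 YS cells. Of the members, Coro1a had 0.982, Laptm5 0.947, Arhgdib 0.943, Ptpn6 0.911, Lcp1 0.853 and Cmtm7 0.819 with the sum they are part of, and the other 4 were too low to enter. The 13 points share strains and sets, so the values are descriptions.

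The wIAHC libraries gave the only replicated test, and the members had not been picked on them. Of 109 libraries, 57 had at least 5000 transcripts, namely 7 E10 dorsal, 21 E10 ventral, 12 E11 dorsal and 17 E11 ventral, with 5099 to 115328 transcripts each (median 12838). Clusters of 1 embryo could not be recognised, so p-values measure the spread between clusters. By column name E11 clusters fell into 2 sets, here called collection sets, and E10 clusters into 1. Between the E11 sets, 38 of 167 genes that passed edgeR's default filter were called at an adjusted p of 0.05 (22.8%), and the set cannot be told apart from stage where E10 is compared with E11. Fewer cells of a kind in a cluster and less RNA per cell cannot be told apart here. The summed members had medians of 16.3 per 10000 transcripts in E10 dorsal, 14.4 in E10 ventral, 12.9 in E11 dorsal and 13.9 in E11 ventral clusters. The ranges were 7.29 to 31.8, 4.15 to 25.2, 0 to 20.5 and 0.641 to 23.4, and they overlapped between all 4 groups.

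With edgeR's quasi-likelihood test on 9651 genes seen in at least 7 libraries, 0 of 10 members passed an adjusted p of 0.05 in any of 5 contrasts. The default filter of edgeR kept 260 genes and no member, so this wider filter was chosen after seeing the data. Of all genes, 1.59% were lower and 2.09% higher at E11 than at E10 in ventral clusters, and 1.04% lower and 0.332% higher in dorsal clusters. Ventral and dorsal clusters differed in 0.135% of genes at E10 and 0.166% at E11, and 0.394% passed for a stage difference that depended on the side. At an unadjusted p under 0.05, 1, 4, 0, 2 and 1 members were counted in the same order, against 15.7%, 13.8%, 6.51%, 11% and 7.99% of all genes. DESeq2 gave an adjusted p to 8, 3, 10, 4 and 10 members and counted 0, 1, 0, 0 and 0 past 0.05, where 3.53%, 20.1%, 0%, 1.54% and 0% of the genes it adjusted passed. Its unadjusted counts were 1, 5, 0, 2 and 1, against 6.2%, 6.79%, 0.91%, 4.63% and 2.0% of all genes.

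Coro1a came closest. Its lowest, median and highest levels were 2.16, 5.94 and 9.12 per 10000 in E10 dorsal, 0, 3.06 and 11.9 in E10 ventral, 0, 2.25 and 9.88 in E11 dorsal and 0, 3.95 and 7.43 in E11 ventral clusters. The groups overlapped widely. All 7 E10 dorsal clusters held Coro1a against 9 of 12 E11 dorsal ones, a count that also depends on depth (medians 14063 and 8244 transcripts). In dorsal clusters the E11 minus E10 difference in Coro1a was -1.33 (log2, SE 0.43, edgeR adjusted p = 0.0953). DESeq2 gave -1.57 with an adjusted p of 0.0285, and over all alternatives the adjusted p ran from 0.0285 to 0.372. Within E11 collection sets the difference was -1.43 with the first set alone and -1.32 with the second. In ventral clusters it was -0.10 (SE 0.28), and the interaction was 1.23 (SE 0.52, edgeR adjusted p = 0.474).

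Arhgdib, Cmtm7 and Lcp1 went the same way in dorsal clusters. Their E11 minus E10 differences were -1.19 (SE 0.54), -1.18 (SE 0.55) and -1.19 (SE 0.58) on the log2 scale, with edgeR adjusted p-values of 0.289, 0.292 and 0.314. For Arhgdib 1 E10 dorsal library stood apart, at 7.59 per 10000 against 2.87 in the next. Its part in the Arhgdib difference was not tested. The median over the 10 members was -0.88 and that over all genes -0.34, with Laptm5, Vav1 and Was above 0, and by DESeq2's scaling these medians were -1.15 and -0.08. With the first E11 collection set alone they were -0.81 and -0.25, and with the second -1.14 and -0.85. With libraries of at least 10000 transcripts they were -0.54 and -0.2. In ventral clusters the medians were -0.18 and -0.13, and the direction turned with the E11 collection set. With the first set alone the median over members was 0.26 (7 of 10 above 0), and with the second it was -0.47 (9 of 10 below 0). Laptm5 was the member with the lowest unadjusted p in ventral clusters, at a difference of -0.77 (SE 0.32, edgeR adjusted p = 0.17), from a median of 2.51 per 10000 at E10 to 1.72 at E11.

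Between the sides of the aorta the members did not separate. Arhgdib at E11 had a median of 0.29 per 10000 in dorsal and 2.59 in ventral clusters. It was seen in 6 of 12 and 16 of 17 libraries, counts that also depend on depth (medians 8244 and 12838 transcripts). The ventral minus dorsal difference in Arhgdib was 1.36 (log2, SE 0.47, edgeR adjusted p = 0.269). It was 2.08 within the first and 0.87 within the second collection set. Ptpn6 had medians of 1.16 and 1.2 in the same groups, with a difference of 0.05 (SE 0.49), and its E10 medians were 2.19 dorsal and 1.3 ventral.

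Cd53 was seen in few whole clusters, with 1 of 7, 6 of 21, 1 of 12 and 2 of 17 libraries positive in E10 dorsal, E10 ventral, E11 dorsal and E11 ventral clusters. Vav1 was seen in 3, 8, 4 and 7 of them, with a median of 0 in each group. Coro1a, in contrast, was seen in 7, 19, 9 and 15. These counts also depend on depth, whose medians were 14063, 14538, 8244 and 12838 transcripts in the same order.

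**Figure D5:**
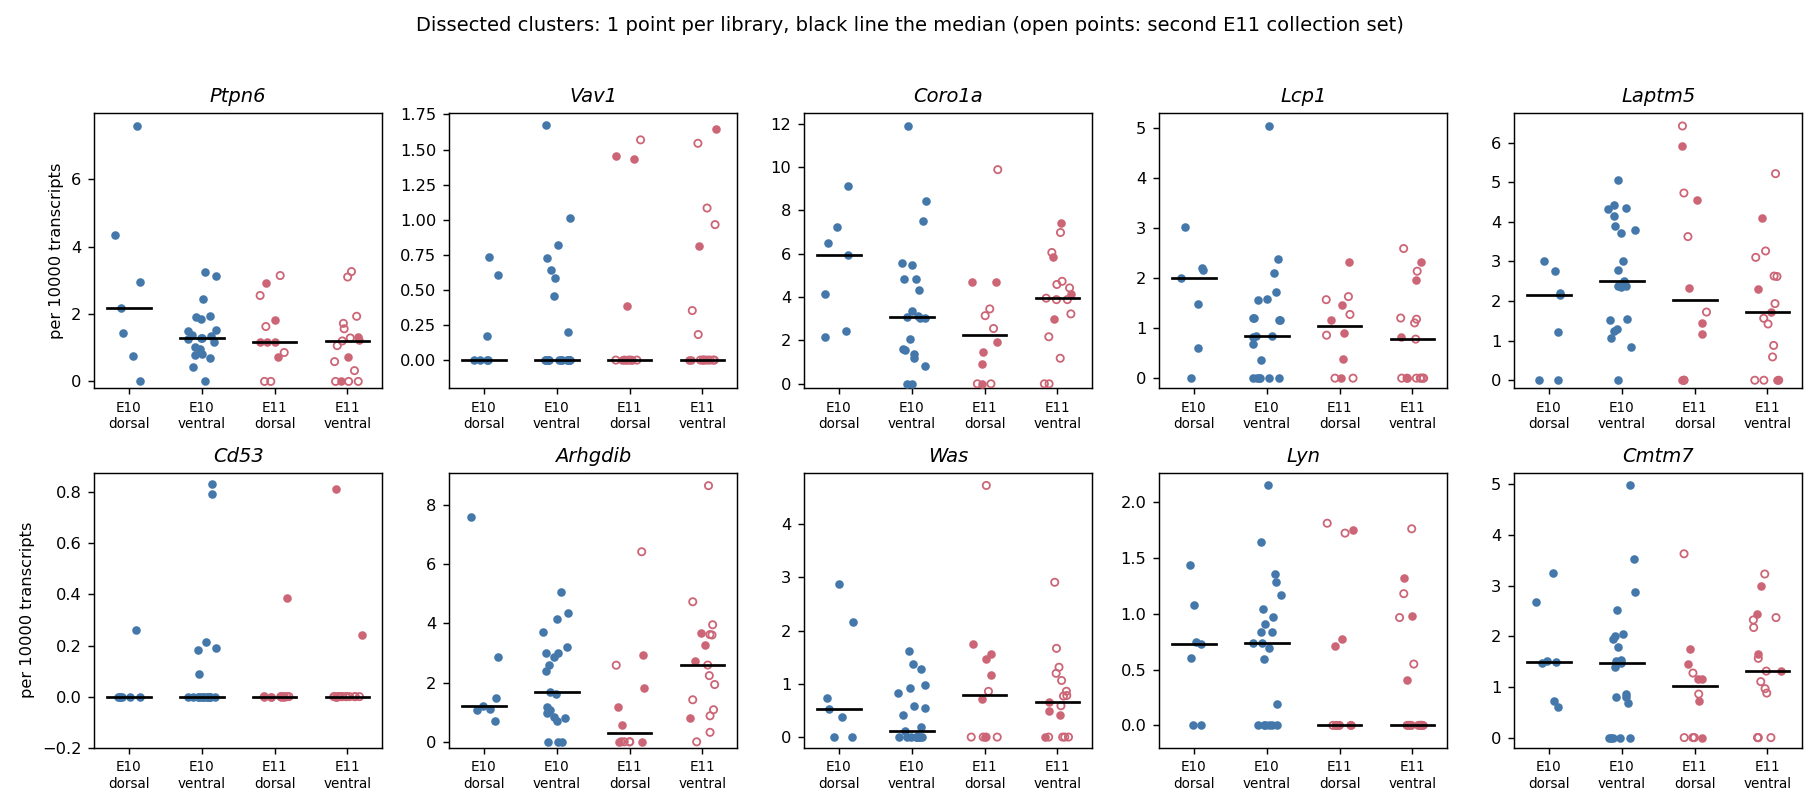
Level of each gene per 10000 transcripts (vertical axes) in 57 wIAHC libraries by stage and side, 1 point per library with the median as a line and the second E11 collection set as open points. Points of all 4 groups overlap for every gene, and the E10 dorsal median of Coro1a is 5.94 against 2.25 in E11 dorsal libraries.

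Red cell transcripts moved with stage in the same libraries. The median sum of 7 erythroid markers was 3.01 per 10000 in E10 dorsal and 1.5 in E10 ventral clusters, and 19 and 30.3 at E11. In 3 E11 libraries haemoglobin genes took over 10% of transcripts (up to 27.5%), and there 7 of the 10 members, Coro1a among them, were at 0. Without these 3, the Coro1a dorsal difference was -1.26 (edgeR adjusted p = 0.142) and 0 members passed in any contrast. Endothelial markers had medians of 4.4 and 5.77 per 10000 at E10 and 9.84 and 7.01 at E11 in dorsal and ventral clusters, and their part in the result was not tested.

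Of the listed relatives in wIAHCs, 4 passed edgeR's test at an adjusted p of 0.05 and all were lower at E11. In ventral clusters these were Ptpn7, a tyrosine phosphatase of blood cells (-1.83, SE 0.44, edgeR adjusted p = 0.00251), Tyrobp (-1.73, SE 0.55, edgeR adjusted p = 0.047), and the tetraspanin Cd63 (-1.26, SE 0.34, edgeR adjusted p = 0.0127). In dorsal clusters it was Fcer1g (-3.68, SE 0.99, edgeR adjusted p = 0.0234). They were 2 of 32 signalling genes and 1 of 19 counterparts tested in ventral clusters, where 1.59% of all genes were lower. In dorsal clusters it was 1 of 32 signalling genes, where 1.04% of all genes were lower. These calls depended on the setting. With the first E11 collection set alone all 4 were lost and Lcp2, an adaptor of blood cells, was called higher in ventral clusters. With the second set alone, and with libraries of at least 10000 transcripts, Ptpn7 and Cd63 passed and Tyrobp and Fcer1g did not. By DESeq2 Ptpn7 and Cd63 passed as well. Tyrobp passed in none of the other settings run. Summed macrophage markers were lower in the same E11 libraries, with medians of 1.27 per 10000 at E10 and 0.707 at E11 in ventral and of 0.606 and 0 in dorsal clusters, and their part in the result was not tested. No counterpart or signalling gene of these lists passed between the sides or for the interaction.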

How the data were processed

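The authors sequenced sorted single cells and picked whole clusters (wIAHCs) by CEL-Seq. Per the submitters' processing notes, BWA 0.6.2-r126 and mm10 were used. The deposited values are expected counts, transcripts that the authors estimated from molecular identifiers. For single cells the authors had down-sampled these to 3000 (E10) or 5000 (E11) per cell and added 0.1, which was taken off here. For wIAHCs they were rounded to whole numbers. The 10 genes and all gene lists were chosen with earlier results of these data known, and the named genes are the 10, relatives that a result turns on, and the 5 most alike in level.

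Populations were compared by sums and shares of cells, ratios of sums with exact conditional intervals, and the percentage of all genes at least 2-fold higher (0.1 added, mean of at least 0.1). Equalised depth makes a level a share of the cell's transcripts. No doublet caller was run, since cells had been sorted into wells. No pair of cells held identical values and 0 columns were left unmapped. A macrophage-marker cell had transcripts of 4 or more of 7 markers. E11 cells were thinned with a fixed seed.

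The wIAHC libraries of at least 5000 transcripts were tested with edgeR 4.0.16 (quasi-likelihood, TMM, all 4 groups in 1 fit, Benjamini-Hochberg over all genes tested), with DESeq2 1.42.0 as an alternative, in R 4.3.3. The edgeR test was also run on simulated data, after the real tests and with settings taken from the fit on genes seen in 7 libraries. Python 3.11.15, pandas 2.3.3, numpy 2.4.6, scipy 1.17.1 and matplotlib 3.10.9 were used. Other alternatives were other pseudocounts, filters, depths, sets of cells and collection sets.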

Additional observations from a re-analysis of the deposited data

Results flagged for a closer look

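In E10 dorsal wIAHCs, 1 of 7 libraries stood apart for each of 2 genes, at a gap to the next library above 0.568 of the group's range. For Cd53 it held 0.262 per 10000 transcripts and the other 6 held 0 (gap over range 1). For Arhgdib another library held 7.59 against 2.87 in the next (gap over range 0.687). The summed macrophage markers also had 1 library apart there, at 4.52 per 10000 (gap over range 0.669). For values spread about normally, chance gives such a gap in about 1 of 20 groups, but a gene seen in a single library, such as Cd53 here, always has a gap over range of 1, and 10 genes and several marker sums were looked at.

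Some folds between single-cell populations took opposite directions at E10 and E11, and the difference between stages was not tested. For Lcp1, the log2 ratio of HE over non-HE was 1.11 at E10 and -2.49 at E11, and that of EHT over HE was -0.19 and 3.66, where the E10 interval spanned 0 (-0.69 to 0.32) and the E10 ratio was 0.23 with 1 of the 2 HE sets alone. For Lyn, HE over non-HE was 0.34 and -0.62, and EHT over HE was 0.27 and -1, where every interval spanned 0. Both changes of Lcp1 pass through the E11 HE cells, which were 1 set with 3 Lcp1 transcripts.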

How the results depend on the processing

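No paired analysis was run. Each labelled group of single cells was 1 sample, and both types of pre-HSC came from the same one. Sorted sets were not treated as replicates. The numbers in wIAHC column names run once through both sides of a collection set, so that they name libraries and pair none. The pre-HSC sets do carry matching numbers by type, so their 3 pairs are given as values with no test. No replicate was left out in turn, since each wIAHC group held 7 or more libraries. Counting depth limits the rare genes: Vav1, Cd53, Was and Lyn rested on few transcripts in most populations.

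In single cells, c-kit+ IAHC cells that passed the in silico rule held 11.9 member transcripts per cell, against 11.1 in all. Members at least 2-fold higher were fewer with a pseudocount of 0.5: 0 for E10 HE over non-HE, 2 for E10 EHT over HE, 0 for E10 IAHC over EHT, 2 for E11 EHT over HE, 0 for type I over EHT and 0 for type II over type I. Of all genes, 0.0845%, 0.313%, 0.192%, 0.675%, 0.283% and 0.0153% passed in the same order. With a minimum mean of 0.5 they were 0, 2, 2, 1 and 1 for the first 5 of these, in which 1, 4, 5, 3 and 5 members were measured, against 1.77%, 3.35%, 2.9%, 4.76% and 3.32% of all genes. Leaving out each pre-HSC set in turn, chosen after seeing the data, left 1 member at least 2-fold higher in type II, except 0 without the second type I set. Lcp1 from HE to EHT at E10 was -0.88 to 0.38 on the log2 scale by set. With 2 transcripts required, cells with 5 or more of the genes were 0.524% of E10 EHT and 16.4% of type II cells.

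In wIAHCs, the edgeR default filter called 81 of 260 genes for stage in ventral clusters, and other settings 162 (DESeq2), 310 (no filter), 355 (genes seen in 7 libraries), 132 (10000 transcripts) and 44 (first E11 set). For stage in dorsal clusters it called 24, and the others 195 (DESeq2), 107 (no filter), 132 (seen in 7) and 3 (10000 transcripts). It called 0 for each comparison of sides and for the interaction, against 8 (no filter) and 13 (seen in 7) at E10, 19 (DESeq2), 12 (no filter), 16 (seen in 7) and 1 (first set) at E11, and 21 (no filter) and 38 (seen in 7) for the interaction. Of the members, 1 of 3 given an adjusted p was called for stage in dorsal clusters by DESeq2 (Coro1a, -1.57). The settings that tested all 10 members (no filter, genes seen in 7 libraries and its variants) called 0. The default filter left 0 members to test at 5000 and 2000 transcripts, without haemoglobin-rich libraries and with the second set, and 1 at 10000 transcripts and with the first set, so those counts say nothing about the members. The filter on genes seen in 7 libraries and the single collection sets were chosen after seeing the data. With collection set as a term, the E11 sides had 0 calls among 167 genes and no member could be tested. No direction of a called value reversed.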
